A study of Homo sapiens with 8 samples.

Results

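The genes described are CDH1, CDH2, CDH3, VIM, ZEB1, ZEB2, SNAI2, GRHL2, ESRP1 and ESRP2, which are the classical cadherins and the regulators and markers most used to follow the epithelial-mesenchymal transition. They were found by gene symbol after the Ensembl identifiers of the count table had been matched to GENCODE, and are 10 of the 58302 genes in that table. The libraries come from xenograft tumours of T24, an established human bladder cancer line, sequenced after messenger RNA selection. In 4 libraries the tumour grew from control T24 cells and in 4 from T24 cells labelled as overexpressing DDR1, a receptor tyrosine kinase activated by collagen. The sources used here do not give the host strain and age, the vector, the promoter that drove DDR1, whether a line was a clone or what the control cells carried.

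Cadherins are calcium-dependent adhesion proteins that join neighbouring cells, and their cytoplasmic tails bind catenins that tie the junction to actin. In the epithelial-mesenchymal transition, cells lower E-cadherin and other epithelial genes and raise N-cadherin, vimentin and matrix genes. Repressors of the ZEB and SNAIL families bind E-box motifs at epithelial promoters, GRHL2 acts on the epithelial side, and the splicing factors ESRP1 and ESRP2 maintain epithelial isoforms of many transcripts. In bladder epithelium CDH1 is present throughout and CDH3 marks the basal layer, and T24 is usually described as a poorly differentiated line.

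Levels below are CPM, the share of a library's counts scaled to a common total, after TMM scaling, given in the order of replicates 1 to 4. The targeted gene DDR1 stood at 138, 109.8, 210.4 and 149 CPM in controls, and at 159, 343, 427 and 809.9 CPM in the DDR1 group. The library labelled DDR1 replicate 1 lay among the controls, which goes against its label, so group differences, list counts and correlations are also given without it. The DDR1 gene had a log2 fold change of 1.52 (standard error 0.43, edgeR unadjusted p = 0.00612, adjusted p = 0.9998), and 1.79 without that library (unadjusted p = 0.000501). Totals ran from 13716285 to 32271016 expected counts per library. The titles of all DDR1 libraries name lane 8, while those of controls name lane 7 or none, so lane and group cannot be told apart. By title prefix, DDR1 replicates 2, 3 and 4 belong to 1 set and replicate 1 to another, and control replicates 3 and 4 share a prefix, so without DDR1 replicate 1 the DDR1 group is a single set. Nothing in the labels ties a library to its own animal, so a p-value here reflects spread among libraries, part of which may be technical. In whole tumours, fewer cells of a type and less RNA per cell cannot be told apart.

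None of the 10 genes passed a test between the groups that was adjusted over all genes, and GRHL2 was too low to be tested. For CDH1, ESRP1, VIM and SNAI2 the highest and the lowest library were both in the DDR1 group. ZEB1 was higher in every DDR1 library than in any control, by a small margin, and the mean of ZEB2 was lower in the DDR1 group. Of the 9 genes tested with edgeR's quasi-likelihood test, 0 passed at an adjusted p under 0.05, beside 0.0% of all 18973 genes, and each of the 9 had an adjusted p of 0.9998. An unadjusted p under 0.05 was reached by 1 of the 9, ZEB2, beside 4.17% of all genes. DESeq2 called 0 of the 9 and 0.0899% of the genes for which it gave an adjusted p. The mean of 5 genes was higher and that of 4 lower in the DDR1 group, with a median log2 fold change of 0.07, against -0.003 for all genes. Without the library labelled DDR1 replicate 1, 3 of the 9 had an unadjusted p under 0.05 (CDH2, ZEB2 and SNAI2), beside 4.76% of all genes, and none passed adjustment (adjusted p = 0.937 for each of the 3). Then 4 had a higher and 5 a lower mean, with a median of -0.53 against -0.011 for all genes.

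**Figure D1:**
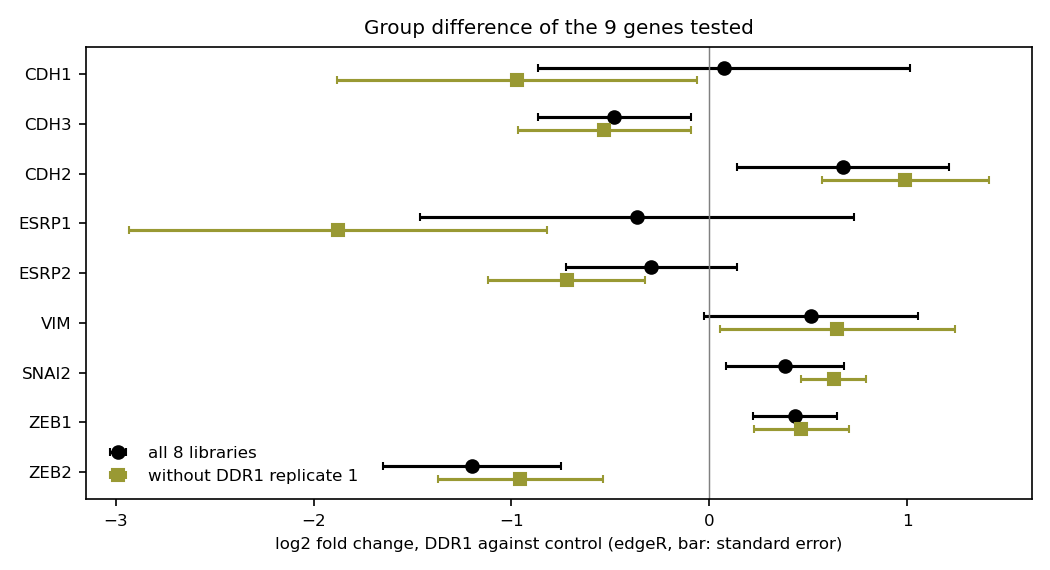
Log2 fold change of each tested gene, DDR1 against control, with its standard error, from all 8 libraries (circles) and without the library labelled DDR1 replicate 1 (squares). ESRP1 and CDH1 moved most when that library was left out, from -0.37 to -1.88 and from 0.07 to -0.97.

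CDH1, E-cadherin, the main adhesion protein of epithelial junctions (ENSG00000039068, GRCh38 chromosome 16, 68737225 to 68835548, plus strand), spanned a 45.6-fold range over the 8 libraries. It stood at 36.8, 120.0, 67.9 and 23.7 CPM in controls and at 167, 77.2, 14.04 and 3.65 CPM in the DDR1 group. The highest and the lowest library were both DDR1 libraries, and the controls lay between them, so the groups overlapped fully. Means were 62.1 ± 42.8 and 65.4 ± 74.9 CPM (SD, n = 4 each). The log2 fold change was 0.07 (standard error 0.94, edgeR adjusted p = 0.9998; exact two-sided permutation p = 0.543). Without the library labelled DDR1 replicate 1, which held the most CDH1, it was -0.97 (standard error 0.91, unadjusted p = 0.316). Limma-voom, which averages log values, gave -0.78 with all 8 libraries, so no direction was held by CDH1. The SD of its log2 CPM over the 8 libraries was larger than that of 98.1% of the genes tested.

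CDH3, P-cadherin, a junction cadherin of basal epithelial cells (ENSG00000062038, chromosome 16, 68636189 to 68722616, plus strand), held 248, 245, 249 and 289 CPM in controls and 203, 214, 266 and 55 CPM in the DDR1 group. The controls differed by 1.18-fold at most, and DDR1 replicate 4, also the lowest library for CDH1, stood far below the other 7. DDR1 against control, the log2 fold change was -0.48 (standard error 0.39, edgeR adjusted p = 0.9998; exact two-sided permutation p = 0.114), -0.17 when DDR1 replicate 4 was left out and -0.53 without the library labelled DDR1 replicate 1.

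CDH2, N-cadherin, the cadherin of neural and mesenchymal cells (ENSG00000170558, chromosome 18, 27950966 to 28177446, minus strand), held 59.7, 49.7, 20.5 and 71.5 CPM in controls. In the DDR1 group it held 21.8, 58.9, 145 and 96.0 CPM. DDR1 replicates 3 and 4 lay above all controls, while the other two lay within the control range. CDH2 had a log2 fold change of 0.68 (standard error 0.54, edgeR adjusted p = 0.9998; exact two-sided permutation p = 0.486). It was 0.99 without the library labelled DDR1 replicate 1 (unadjusted p = 0.0447, adjusted p = 0.937), and 0.22 when DDR1 replicate 3 was left out.

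**Figure D2:**
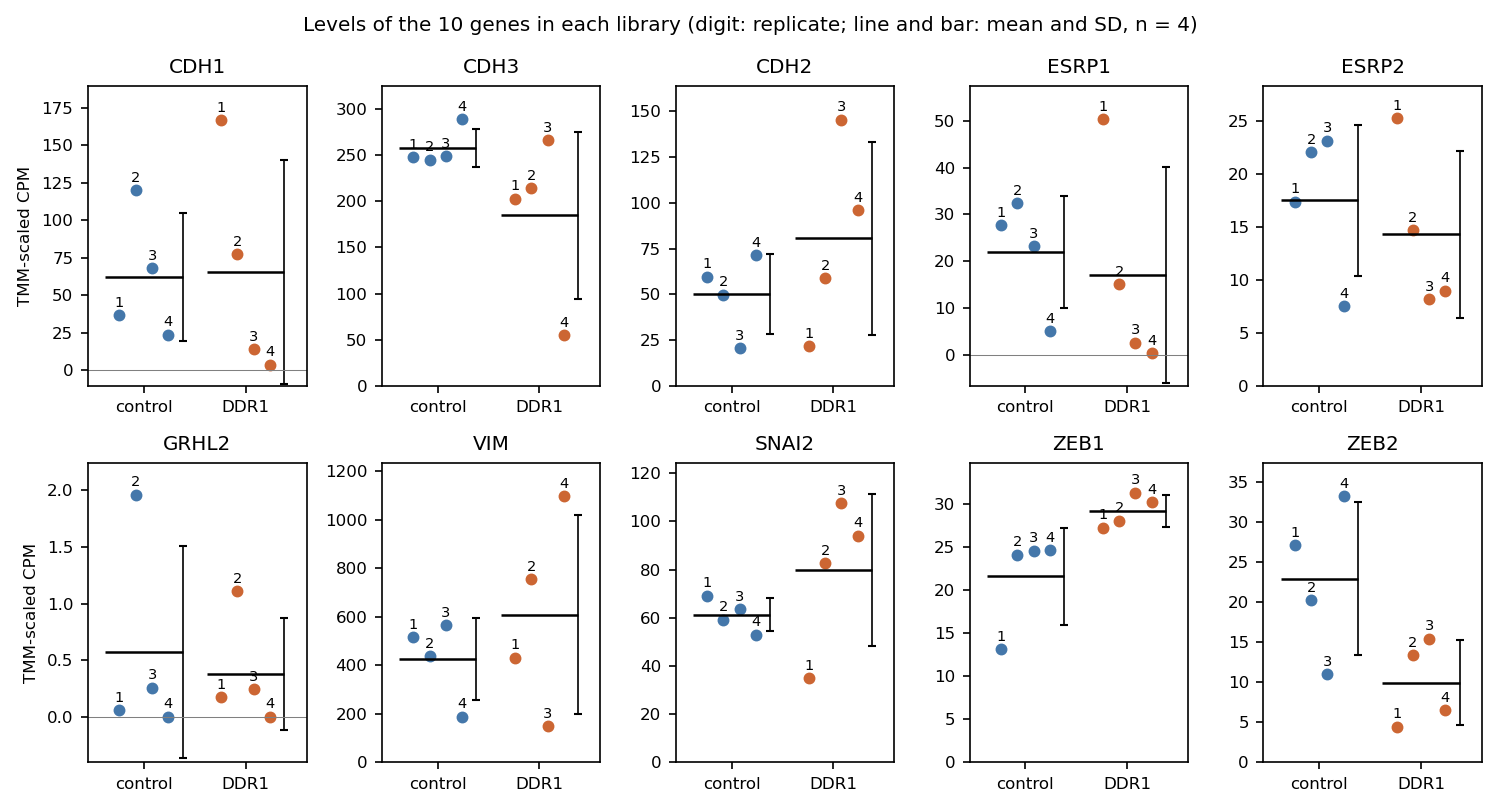
TMM-scaled CPM of each gene in the 4 control and 4 DDR1 libraries, with the replicate number over each point and the mean and SD beside each group. Only for ZEB1 do all DDR1 points lie above all control points.

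The make-up of the 3 cadherins was compared per length, by dividing each CPM by the merged exon length of its gene. CDH3 was the largest share of the sum in 7 of 8 libraries. CDH1 made up 10.3%, 28.2%, 20.0% and 5.93% of the sum in controls and 42.2%, 21.3%, 3.06% and 2.05% in the DDR1 group. CDH2 made up 20.9%, 14.6%, 7.54% and 22.4% in controls and 6.88%, 20.3%, 39.5% and 67.3% in the DDR1 group, and in DDR1 replicate 4 it was the largest share. Per length, CDH1 ran from 6.13 times CDH2 in the library labelled DDR1 replicate 1 to 0.0305 times CDH2 in DDR1 replicate 4. The 4 controls lay between, from 0.265 to 2.65 times. By this ratio the DDR1 group passed the controls on either side, on the upper side only through the library labelled DDR1 replicate 1. Without that library the highest ratio in the DDR1 group was 1.05, within the control range. The share of CDH3 ran from 57.15% to 72.48% in controls and from 30.62% to 58.45% in the DDR1 group, beyond the controls on the low side only.

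**Figure D3:**
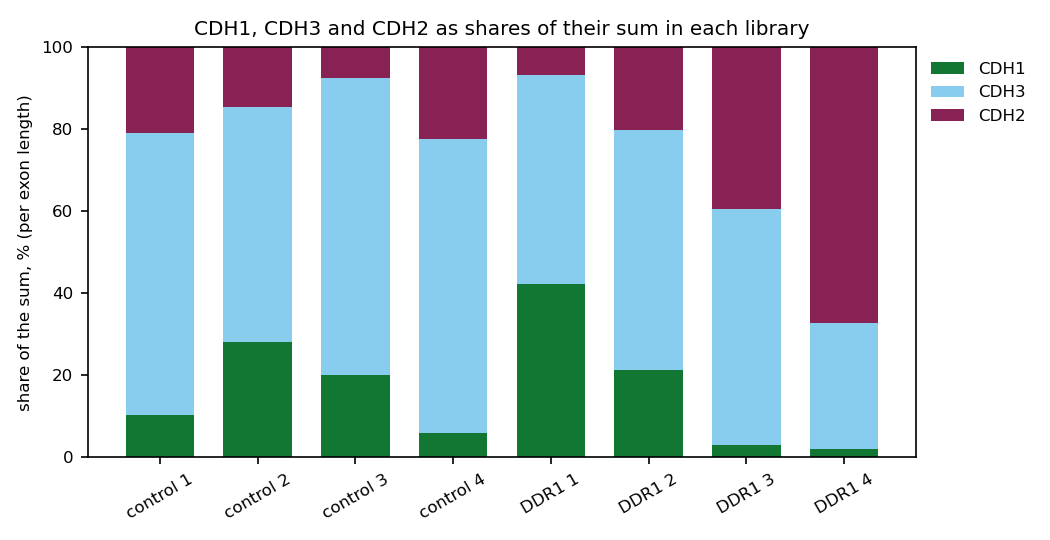
CDH1, CDH3 and CDH2 as percentages of their sum per exon length in each library. CDH2 takes 67.3% in DDR1 replicate 4 and 6.88% in DDR1 replicate 1, while CDH1 takes 2.05% and 42.2%.

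ESRP1 and ESRP2 are RNA-binding proteins that direct epithelial splicing, for example of FGFR2 and CD44. ESRP1 (ENSG00000104413, chromosome 8, 94641074 to 94707466, plus strand) held 27.6, 32.3, 23.2 and 4.95 CPM in controls and 50.4, 15.1, 2.55 and 0.25 CPM in the DDR1 group. The lowest value rested on 5 counts and the highest on 1752, a 201-fold range, and the SD of log2 CPM exceeded that of 99.5% of genes. As with CDH1, the highest library was the one labelled DDR1 replicate 1 and the lowest were DDR1 replicates 3 and 4. Between the groups, the log2 fold change was -0.37 (standard error 1.1, edgeR adjusted p = 0.9998; exact two-sided permutation p = 0.343). It was -1.88 without the library labelled DDR1 replicate 1 (unadjusted p = 0.111), and 0.04 when DDR1 replicate 4 was left out. The sign also turned without the lane 7 controls (0.31) and with libraries of a title prefix summed (0.18), while limma-voom gave -1.76 with all 8 libraries.

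ESRP2 (ENSG00000103067, chromosome 16, 68229111 to 68238102, minus strand) held 17.4, 22.1, 23.2 and 7.54 CPM in controls and 25.3, 14.7, 8.21 and 9.0 CPM in the DDR1 group. Its range was 3.35-fold, far narrower than that of ESRP1, and the groups overlapped. ESRP2 had a log2 fold change of -0.29 (standard error 0.43, edgeR adjusted p = 0.9998), and -0.72 without the library labelled DDR1 replicate 1 (unadjusted p = 0.104). NFATC3, on the other strand at 56.8 to 92.0 CPM, shares 149 bases with the exons of ESRP2, which is 2.68% of their length. The protocol does not say that strand was kept, so some ESRP2 counts may come from NFATC3, and the share of exon length does not bound how many. AC020978.5, on the same strand at up to 9.60 CPM, shares 35 bases with the exons of ESRP2.

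GRHL2, a grainyhead transcription factor that maintains epithelial genes (ENSG00000083307, chromosome 8, 101492432 to 101669726, plus strand), was near or below detection. Its counts were 1, 47, 6 and 0 in controls and 6, 35, 6 and 0 in the DDR1 group. The libraries with the most, control replicate 2 and DDR1 replicate 2, reached 1.96 and 1.11 CPM. A count of 0 allows up to 0.229 CPM in control replicate 4 and 0.15 CPM in DDR1 replicate 4 (3 counts, counting error only). Its relatives GRHL1 and GRHL3, named after their values were seen, were detected in every library, at 13.1 ± 8.13 and 4.62 ± 1.84 CPM in controls and 15.7 ± 11.7 and 5.57 ± 4.02 CPM in the DDR1 group (SD, n = 4 each).

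VIM, vimentin, the intermediate filament of mesenchymal cells (ENSG00000026025, chromosome 10, 17228259 to 17237593, plus strand), held 516, 437, 564 and 188 CPM in controls and 431, 756, 150.4 and 1096 CPM in the DDR1 group. The lowest and the highest libraries were DDR1 replicates 3 and 4, which were both low in CDH1 and ESRP1 and both high in CDH2. VIM had a log2 fold change of 0.51 (standard error 0.54, edgeR adjusted p = 0.9998; exact two-sided permutation p = 0.686). Leaving out the library labelled DDR1 replicate 1 gave 0.65, and it was 0.07 when DDR1 replicate 4 was left out.

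SNAI2, the SNAIL family repressor also called SLUG (ENSG00000019549, chromosome 8, 48917604 to 48921740, minus strand), held 69.2, 59.3, 63.5 and 52.9 CPM in controls. In the DDR1 group it held 35.0, 82.6, 108 and 94.0 CPM, the lowest value being that of the library labelled DDR1 replicate 1. The other 3 DDR1 libraries lay above all 4 controls, and the share of all genes so separated without that library was not counted. With all libraries the log2 fold change was 0.38 (standard error 0.30, edgeR adjusted p = 0.9998; exact two-sided permutation p = 0.514). Without the library labelled DDR1 replicate 1 it was 0.63 (standard error 0.16, edgeR unadjusted p = 0.00437, adjusted p = 0.937). The exact permutation p was then 0.0286, the smallest that 35 orderings allow. Summing the libraries of a title prefix gave 0.04 (edgeR unadjusted p = 0.920).

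ZEB1, a zinc-finger repressor of CDH1 and of the epithelial splicing factors (ENSG00000148516, chromosome 10, 31318495 to 31529814, plus strand), had the narrowest range of the 9 tested genes. It held 13.2, 24.1, 24.6 and 24.6 CPM in controls and 27.2, 28.1, 31.3 and 30.2 CPM in the DDR1 group. All 4 DDR1 libraries lay above all 4 controls, including the library labelled DDR1 replicate 1. ZEB1 was the 1 gene of the 9 whose groups did not overlap, beside 2.4% of all genes tested, and it was so under each of 5 scalings. The log2 fold change was 0.43 (standard error 0.21, edgeR unadjusted p = 0.0719, adjusted p = 0.9998). The exact two-sided permutation p was 0.0286, the smallest that 70 orderings allow. Control replicate 1 was low, and without it the log2 fold change was 0.27. Without the library labelled DDR1 replicate 1 the log2 fold change was 0.47 (edgeR unadjusted p = 0.0838; exact two-sided permutation p = 0.0857).

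ZEB2, the paralog of ZEB1 (ENSG00000169554, chromosome 2, 144364364 to 144524583, minus strand), held 27.1, 20.2, 11.0 and 33.2 CPM in controls and 4.46, 13.4, 15.5 and 6.50 CPM in the DDR1 group. Its mean was lower in the DDR1 group, at 9.95 ± 5.30 against 22.9 ± 9.53 CPM (SD, n = 4 each), and only control replicate 3 lay within the DDR1 range. The log2 fold change was -1.20 (standard error 0.45, edgeR unadjusted p = 0.0242, adjusted p = 0.9998; exact two-sided permutation p = 0.0857). DESeq2 gave an adjusted p of 0.639. Without the library labelled DDR1 replicate 1 the log2 fold change was -0.95 (unadjusted p = 0.0492, adjusted p = 0.937). The edgeR unadjusted p of ZEB2 was above 0.05 without control replicate 1 (0.0607), control replicate 4 (0.0781) or DDR1 replicate 4 (0.0681). It was also above 0.05 without the lane 7 controls (0.105). The means of ZEB1 and ZEB2 thus differed in opposite directions. The ratio of their CPM was 0.486, 1.19, 2.23 and 0.741 in controls and 6.12, 2.10, 2.03 and 4.65 in the DDR1 group, and the ranges of the groups overlapped.

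The sequence upstream of ZEB1 is shown because ZEB1 was the gene whose groups were apart, and because it holds an E-box. The 250 bases before the most upstream RefSeq start of ZEB1 lie at chr10:31318167-31318416 on the plus strand (GRCh38.p14, RefSeq). The motif searched was CACCTG, which reads CAGGTG on the other strand, the sequence that SNAIL and ZEB proteins bind. The match is in capitals and begins 57 bases before the start.

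ZEB1: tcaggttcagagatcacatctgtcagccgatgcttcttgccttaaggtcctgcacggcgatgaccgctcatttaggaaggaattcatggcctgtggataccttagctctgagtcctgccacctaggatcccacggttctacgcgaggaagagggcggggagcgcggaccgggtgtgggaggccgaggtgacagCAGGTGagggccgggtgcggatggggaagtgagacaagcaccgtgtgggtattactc

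Of 35116 promoter windows of 250 bases in the table, 17.5% held the motif on either strand, so a match is common and is a description only. The corresponding windows of ZEB2, VIM and CDH2 held 0 matches. CDH1, CDH3, SNAI2, GRHL2, ESRP1 and ESRP2 had no entry.

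ZEB1 and ZEB2 transcripts are known targets of the miR-200 family and of miR-205, small RNAs of epithelial cells. The mature sequences are shown, credited to RefSeq (GRCh38.p14), because the levels of their host genes differed widely. Capitals mark the seed, bases 2 to 8, the part that pairs with a target.

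hsa-miR-205-5p: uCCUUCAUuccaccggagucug

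hsa-miR-200c-3p: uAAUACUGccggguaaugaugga

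hsa-miR-141-3p: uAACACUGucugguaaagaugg

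The seeds of miR-200c and miR-141 are written AAUACUG and AACACUG, and that of miR-205 is CCUUCAU. MIR205HG, the host of miR-205, was abundant in every library, from 686 to 1157 CPM in controls and from 588 to 687 CPM in the DDR1 group. The group difference was -0.39 on the log2 scale (edgeR unadjusted p = 0.0898). MIR200CHG, the host of miR-200c and miR-141, stood at 0.402 CPM or less in every library, and the 5 hairpin genes of the miR-200 family at 0. Mature miRNAs are not measured by these libraries.

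Per exon length, the 10 genes were ordered by their mean CPM per kilobase over the 8 libraries. VIM led at 100.3, with a range of 29.2 to 213, followed by CDH3 at 35.5, SNAI2 at 20.8, CDH2 at 13.2 and CDH1 at 10.3. The splicing and ZEB factors came next, with ESRP1 at 4.01, ZEB1 at 2.94 and ESRP2 at 2.86. ZEB2 stood at 0.655 and GRHL2 at 0.0784. Neighbours in this order had overlapping ranges, except ESRP2 and ZEB2. The merged exons of ZEB2 span 25058 bp, far more than those of the other 9 genes, which lowers its value on this scale.

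Over the 8 libraries, ESRP1 and ESRP2 followed CDH1, and CDH2 ran opposite to it. Correlations are of log2 CPM with n = 8 libraries, with exact permutation p-values over all pairings of the libraries, adjusted over the 18972 genes compared with CDH1. Of those genes, 0.0% passed at an adjusted p under 0.05, and 9.73% had an unadjusted p under 0.05. Of the 8 other tested genes of the set, 0 passed adjustment and 3 had an unadjusted p under 0.05: ESRP1, ESRP2 and CDH2, of which CDH2 lost it under several alternatives. All values share the same libraries and the same CDH1 measurements, and the libraries spread along CDH1 without separate clusters.

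ESRP1 correlated with CDH1 at r = 0.956 (exact permutation p = 0.00057, adjusted p = 0.273; rho = 0.905, p = 0.00456, adjusted p = 0.435). Without DDR1 replicates 3 and 4, the 2 libraries farthest from the median of CDH1, r was 0.803, and after centring each group on its mean it was 0.965. ESRP2 correlated at r = 0.822 (exact permutation p = 0.0107, adjusted p = 0.377; rho = 0.786, p = 0.0279, adjusted p = 0.492), with 0.819 without those libraries and 0.811 after centring. Without the library labelled DDR1 replicate 1, r was 0.950 for ESRP1 and 0.773 for ESRP2. Both relations kept their sign and an unadjusted p under 0.05 when any single library was left out.

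CDH2 correlated with CDH1 at r = -0.75 (exact permutation p = 0.0358, adjusted p = 0.483; rho = -0.83, p = 0.0154, adjusted p = 0.465). The value was -0.62 without DDR1 replicates 3 and 4 and -0.73 after centring (exact permutation p within groups = 0.0938). Its unadjusted p was above 0.05 without control replicate 1 (0.0617), control replicate 4 (0.0593), DDR1 replicate 3 (0.0615) or the library labelled DDR1 replicate 1 (0.113, r = -0.66). SNAI2 had r = -0.69 (exact permutation p = 0.0592, adjusted p = 0.533; rho = -0.67, p = 0.0831, adjusted p = 0.604), -0.38 without DDR1 replicates 3 and 4, and -0.57 when the library labelled DDR1 replicate 1 was left out. VIM had r = -0.03 (exact permutation p = 0.948; rho = -0.05, p = 0.935), ZEB1 r = -0.20 (p = 0.632; rho = -0.43, p = 0.299) and ZEB2 r = -0.03 (p = 0.945; rho = -0.21, p = 0.619), and the adjusted p of r was 0.930 to 0.991. Without DDR1 replicates 3 and 4 the r of VIM, ZEB1 and ZEB2 moved to 0.50, 0.47 and -0.81, and leaving out the library labelled DDR1 replicate 1 gave -0.03, -0.31 and 0.43.

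CDH3 had r = 0.63 (exact permutation p = 0.123, adjusted p = 0.623; rho = -0.26, p = 0.536, adjusted p = 0.909), which rested on DDR1 replicate 4 and became -0.79 when it was left out, and was 0.71 without the library labelled DDR1 replicate 1. The DDR1 gene itself had r = -0.75 with CDH1 (exact permutation p = 0.0285, adjusted p = 0.459; rho = -0.55, p = 0.171, adjusted p = 0.717). That relation rested on DDR1 replicates 3 and 4, since r was 0.03 without them. The value was -0.44 without DDR1 replicate 4 alone and -0.72 without DDR1 replicate 3 alone. After centring each group on its mean it was -0.85 (exact permutation p within groups = 0.0417). It was -0.75 when the library labelled DDR1 replicate 1 was left out.

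**Figure D4:**
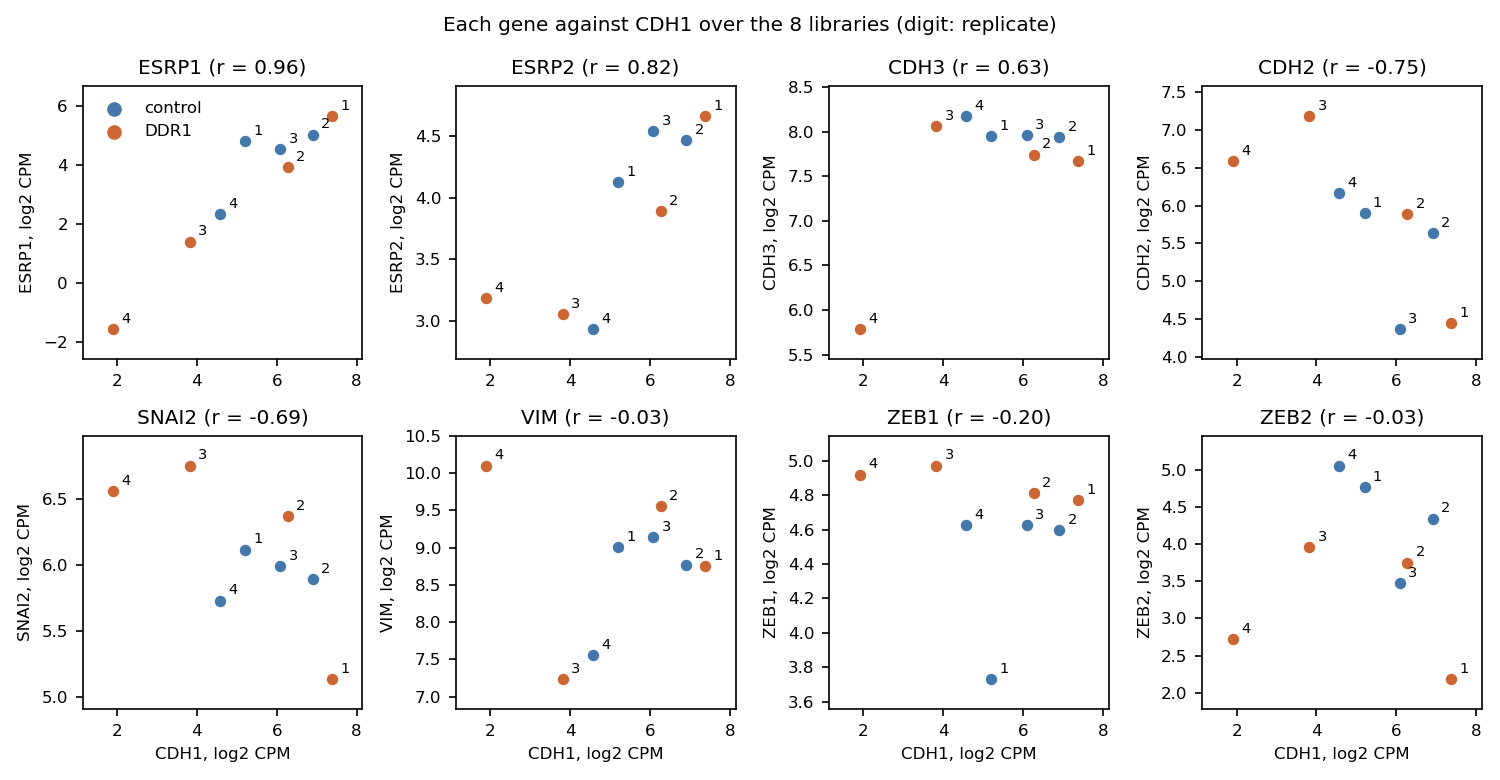
Log2 CPM of 8 genes against log2 CPM of CDH1 in the 8 libraries, coloured by group, with the replicate number beside each point and Pearson's r in each title. ESRP1 lies closest to a line (r = 0.96), and CDH3 runs slightly opposite to CDH1 except in DDR1 replicate 4 (r = -0.79 without it).

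With CDH2 and VIM in turn as the gene compared with, a choice made after seeing the data, 0.0% and 0.0% of genes passed at an adjusted p under 0.05. CDH2 was closest to ESRP2 among the set, at r = -0.85 (exact permutation p = 0.00392, adjusted p = 0.192; rho = -0.88, p = 0.00724, adjusted p = 0.266), and r was -0.78 without control replicate 3 and the library labelled DDR1 replicate 1, the farthest from its median. CDH2 and SNAI2 had r = 0.76 (exact permutation p = 0.0285, adjusted p = 0.294; rho = 0.64, p = 0.0962, adjusted p = 0.555), and 0.75 without those libraries. VIM had its largest value with CDH3, at r = -0.67 (exact permutation p = 0.0419, adjusted p = 0.827; rho = -0.64, p = 0.0962, adjusted p = 0.969). Leaving out the library labelled DDR1 replicate 1 gave -0.81 for CDH2 with ESRP2, 0.63 for CDH2 with SNAI2 and -0.67 for VIM with CDH3.

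The genes whose pattern was most like that of CDH1 among all 18972 were MSRB2 (r = 0.978), RHBDL3 (r = 0.978), SUCLG1 (r = 0.977), AC131649.2 (r = 0.973) and PSMD1 (r = 0.970). The most opposite were EGR2 (r = -0.98), PLCG1 (r = -0.96), VPS9D1 (r = -0.96), MAPK8IP3 (r = -0.95) and AL031846.2 (r = -0.95). None of these 10 passed adjustment (adjusted exact permutation p between 0.217 and 0.273, n = 8). With the library labelled DDR1 replicate 1 left out, r ran from 0.967 to 0.978 for the former and from -0.97 to -0.93 for the latter. ESRP1, at r = 0.956, stood higher than 99.9% of genes. Of the 10 genes, RHBDL3 was near detection, from 0.15 to 0.7185 CPM, and MSRB2 was low, from 0.75 to 1.638 CPM.

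Most genes of an epithelial list followed CDH1 as well, while catenin and junction genes and urothelial markers were split. In a list of 16 epithelial genes, 14 had a positive r with CDH1 and the median r was 0.687, against 48.4% of all genes with a positive r and a median of -0.02. The highest were TJP3 (r = 0.922), a tight junction protein, ST14 (r = 0.866), a membrane protease, and EPCAM (r = 0.853), an epithelial adhesion protein, all named after their values were seen. TJP3 was low, from 0.15 CPM in DDR1 replicate 4, near detection, to 3.88 CPM in the library labelled DDR1 replicate 1. Of 15 tested mesenchymal genes, 1 had a positive r and the median was -0.42, and LOXL2 (r = -0.88) and MSN (r = -0.86), named in the same way, were the most negative. Among 10 tested epithelial transcription factors, 7 had a positive r, and the highest was GRHL1 (r = 0.886). Among 8 other tested transcription factors of the transition, 2 had a positive r, with a median of -0.30. The highest of these was KLF8 (r = 0.904), above GRHL1 and named after its value was seen. Of 11 tested catenin and junction genes, 5 had a positive r, with a median of -0.11. Of 6 tested urothelial markers, 3 did, with a median of -0.07. When the library labelled DDR1 replicate 1 was left out, 14 of 16 epithelial genes, 3 of 15 mesenchymal genes and 7 of 10 epithelial factors had a positive r, with medians of 0.652, -0.32 and 0.249. Then 6 of 11 catenin and junction genes and 2 of 6 urothelial markers had a positive r, with medians of 0.13 and -0.11. For the other transcription factors of the transition it was 3 of 8, with a median of -0.13. These values are descriptions over the same 8 libraries, and the lists were drawn up with earlier results of these data known.

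No gene of these lists passed between the groups. With edgeR, 0 of the 16 epithelial genes and 0 of the 15 mesenchymal genes had an unadjusted p under 0.05, and 8 and 10 of them were higher in the DDR1 group. Without the library labelled DDR1 replicate 1, 5 of 16 epithelial and 13 of 16 mesenchymal genes were higher, beside 9432 of all 19472 genes. Their median log2 fold changes were -0.14 and 0.49. EPCAM alone of these had an unadjusted p under 0.05, in the lower direction, beside 4.76% of all genes. The most abundant were MAL2, at 193 ± 80.2 and 249 ± 81.7 CPM for control and DDR1 libraries, and SPINT2, at 99.1 ± 16.9 and 108 ± 29.02 CPM (SD, n = 4 each). The mesenchymal list was led by FN1, fibronectin, at 43590 ± 13670 and 35640 ± 40410 CPM, and TNC, at 865 ± 585 and 861 ± 799 CPM. FN1 took from 0.446% to 8.50% of all counts in a library, with both extremes in the DDR1 group.

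Of 10 tested epithelial transcription factors, 9 had a higher mean in the DDR1 group, with a median log2 fold change of 0.35 against -0.003 for all genes, and 0 had an unadjusted p under 0.05. A 9 to 1 split, with a median of 0.29, was found without the library labelled DDR1 replicate 1, where 9432 of all 19472 genes were higher. TP63, a factor of basal epithelium, stood at 185 ± 35.3 and 231 ± 123 CPM (SD, n = 4 each). Other regulators of the transition split evenly, 4 higher and 4 lower of 8 tested, with or without that library, with SOX9 at 64.9 ± 13.2 and 64.9 ± 20.2 CPM and FOSL1 at 50.2 ± 7.93 and 40.1 ± 23.9 CPM. TWIST1, TWIST2, SNAI3 and GSC stayed under 1 CPM in every library. SNAI1, the closest relative of SNAI2, held 0.511 ± 0.168 and 0.819 ± 0.539 CPM. These 5 were named after their values were seen.

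Among 9 other cadherins tested, 2 had a higher and 7 a lower mean in the DDR1 group, and 0 had an unadjusted p under 0.05; when the library labelled DDR1 replicate 1 was left out, 4 were higher and 5 lower. CDH13, a cadherin with a lipid anchor, stood at 256 ± 65.6 and 234 ± 76.4 CPM, and CDH5, the endothelial cadherin, stood at 16.3 ± 18.7 and 25.7 ± 20.0 CPM (SD, n = 4 each). The catenins and other junction genes split 3 higher and 8 lower, with 0 at an unadjusted p under 0.05. Without that library they split 5 higher and 6 lower. NECTIN1 then had an unadjusted p under 0.05 in the higher direction, beside 4.76% of all genes. CTNNB1, beta-catenin, which binds the cadherin tail, stood at 433 ± 79.6 and 333 ± 82.4 CPM, and VCL, vinculin, at 552 ± 137 and 508 ± 22.6 CPM.

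**Figure D5:**
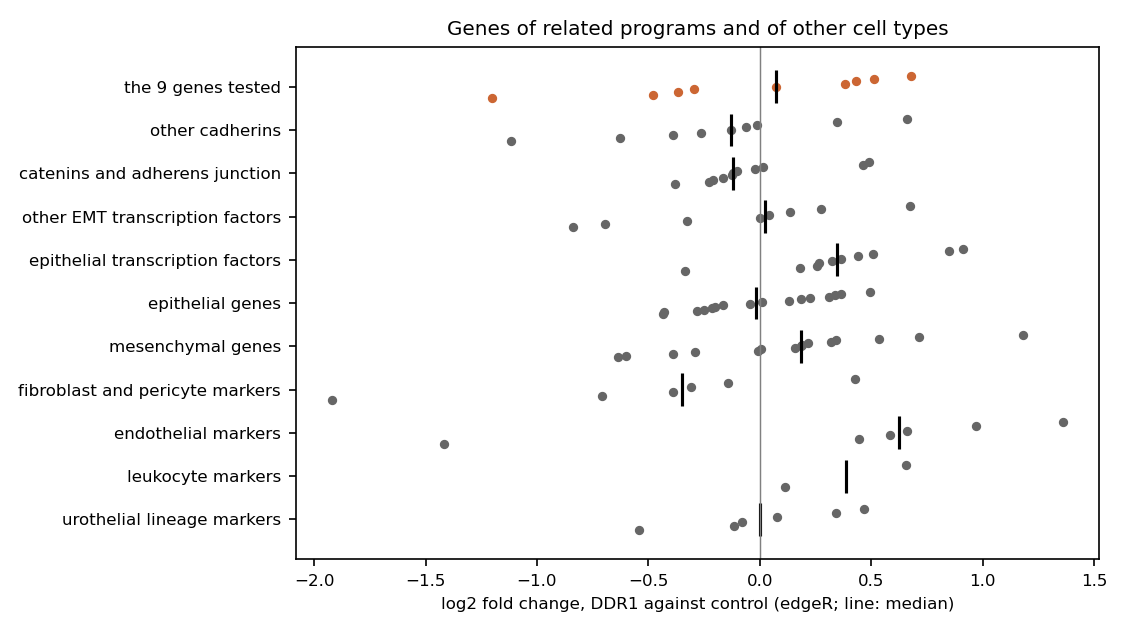
Log2 fold change, DDR1 against control, of each tested gene of the set and of 10 lists of related genes and cell type markers, 1 point a gene, with the median as a line. The points of each list lie on either side of 0 except for the leukocyte markers, of which 2 were tested.

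Markers of the labelled origin and of host cells were read beside these values. KRT5 (2013 ± 912 and 2785 ± 981 CPM) and KRT8 (415 ± 99.1 and 526 ± 276.5 CPM) were abundant, while the uroplakin genes, which define differentiated urothelium, were low: UPK1A and UPK3A stayed under 1 CPM in every library, and UPK1B, UPK2 and UPK3B reached 1.89, 1.84 and 1.68 CPM. KRT20 reached 1.03 CPM. The summed fibroblast and pericyte markers ran from 26.6 to 130.0 CPM in controls and from 16.3 to 77.9 CPM in the DDR1 group. COL1A1 held 13.7 ± 6.27 and 8.36 ± 4.51 CPM, and COL3A1, PDGFRA, PDGFRB and ACTA2 reached 26.8, 33.1, 4.04 and 12.6 CPM. DCN, LUM and COL1A2 stayed under 1 CPM throughout. THY1 was lower in the DDR1 group, at 9.14 ± 6.03 against 34.8 ± 23.9 CPM (edgeR unadjusted p = 0.0379), which was not below 0.05 without the library labelled DDR1 replicate 1. The summed endothelial markers ran from 27.5 to 68.2 and from 36.9 to 163 CPM, with PECAM1 at 4.25 to 21.8 CPM and KDR, TEK and CLDN5 under 1 CPM. EGFL7 held 12.9 ± 5.80 and 33.1 ± 36.2 CPM. ROBO4 was the 1 list gene whose groups did not overlap, beside 2.4% of all genes tested (0.705 ± 0.0945 and 0.261 ± 0.164 CPM, edgeR unadjusted p = 0.0145). It was near detection, at 0.0862 CPM or 3 counts in the library labelled DDR1 replicate 1. The summed leukocyte markers ran from 13.5 to 37.6 and from 18.8 to 47.0 CPM, almost all from CD68 (19.0 ± 12.1 and 29.99 ± 11.9 CPM), with the other 9 of 10, CSF1R among them, under 1 CPM and C1QA at 0 in all libraries. When the library labelled DDR1 replicate 1 was left out, 4 of 6 fibroblast, 5 of 6 endothelial, 2 of 3 leukocyte and 4 of 6 urothelial markers tested had a higher mean in the DDR1 group. PECAM1 (higher), ROBO4 and ITGAM (both lower) then had an unadjusted p under 0.05, beside 4.76% of all genes. The part of host cells in the values of VIM, CDH2 and ZEB2 was not tested.

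In the genome, CDH3 and CDH1 lie in tandem on chromosome 16, 14.6 kb apart, and ESRP2 lies 398 kb from CDH3. Over the libraries CDH1 spanned 45.6-fold, CDH3 5.26-fold and ESRP2 3.35-fold. VIM and ZEB1 are on chromosome 10, and SNAI2, ESRP1 and GRHL2 on chromosome 8, megabases apart. Antisense genes overlap the exons of VIM (VIM-AS1, 0.689 to 5.18 CPM) and ZEB1 (ZEB1-AS1, 1.33 to 3.85 CPM). Those that share exon bases with CDH1, CDH2, CDH3, ZEB2 and GRHL2 reached at most 0.762 CPM. The protocol does not say that strand was kept, so reads of either strand may not have been told apart at these genes.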

How the data were processed

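RNA from xenograft tumours was sequenced in 4 control and 4 DDR1 libraries, grouped by the condition label, with replicate numbers in accession order. The submitters' processing notes name STAR 2.7.5, RSEM 1.3.1, Trim Galore 0.6.4, FastQC 0.11.9 and the build GRCh38, with no settings, and whether mouse reads were removed is not given in the sources used here. The authors deposited expected counts per gene, of which 26.5% of the values above 0 were not whole, and they were rounded before testing. The authors also deposited TMM-normalized values on a log2 scale, used for 1 alternative as they stand. Identifiers were matched to GENCODE 29 (58039 of 58302), which supplied coordinates and merged exon lengths.

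Genes were kept by filterByExpr (minimum count 10), which left 18973, and tested with edgeR 4.0.16 (quasi-likelihood, TMM, R 4.3.3) over all 8 libraries, adjusted by Benjamini-Hochberg over all genes at 0.05. A prior count of 2 was added for log2 CPM. The step was tested on simulated counts of 18973 genes, with the changed genes drawn from those with a mean of at least 1 CPM. Of 100 genes changed 2-fold 6% were recovered and of 100 changed 4-fold 64%, with 0 false calls among the unchanged genes. Every pair of libraries differed by more than counting error (chi-square per degree of freedom at least 32.2). Alternatives were other scalings, DESeq2 1.42.0, limma 3.58.1, other filters, leaving out libraries and summing libraries of a title prefix.

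The 10 genes, the lists and the tests were chosen with earlier results of these data known. Genes named beside the 10 were DDR1, from each list the 2 most abundant, any called and any whose groups did not overlap, and the 5 highest and 5 lowest correlations with CDH1, unless said otherwise. A single such gene is not reported here.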

Additional observations from a re-analysis of the deposited data

Results flagged for a closer look

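In each group of 4, the gap between the most extreme library and its neighbour was divided by the range of the group and compared with Dixon's critical value for a group of that size. Of 22 groups tested, 3 exceeded it, where chance flags about 1 in 20. CDH3 in controls gave 0.919, because control replicate 4 (289 CPM) stood above 3 closely spaced libraries (245 to 249 CPM). ZEB1 in controls gave 0.956, because control replicate 1 (13.2 CPM) stood below the other 3 (24.1 to 24.6 CPM). GRHL2 in controls gave 0.868, because control replicate 2 (1.96 CPM) stood above 3 libraries at 0.258 CPM or less.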

How the results depend on the processing

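With edgeR, the limma fits, the other filters and scalings, and with libraries left out, 0 genes were called, and DESeq2 called 16. The direction of CDH2, CDH3, VIM, ZEB1, ZEB2, SNAI2 and ESRP2 held under all 18 alternatives run, but sizes moved. With libraries of a title prefix summed, SNAI2 was 0.04, ESRP2 -0.050, CDH2 0.26 and VIM 0.24, and ESRP2 was -0.067 without the lane 7 controls. For CDH1 the log2 fold change was -0.78 with limma-voom, -0.84 with limma-trend, -0.25 with lane 7 controls only, and -0.97 to 0.61 with 1 library left out. It turned without control replicates 1 and 4, the library labelled DDR1 replicate 1 and DDR1 replicate 2. For ESRP1 it was 0.31 without the lane 7 controls, 0.18 with libraries of a title prefix summed, -1.76 with limma-voom, -1.86 with limma-trend, and -1.88 to 0.038 with 1 library left out. The DDR1 gene stood at 1.31 without the lane 7 controls (edgeR unadjusted p = 0.0653). For the correlations with CDH1, VIM had r = 0.013 after centring and -0.33 to 0.73 with 1 library left out, CDH3 -0.79 to 0.75, ZEB1 -0.60 to 0.039 and ZEB2 -0.61 to 0.43. The cause of these shifts was not tested. No paired analysis was possible because the title prefixes lie within groups and no number in the titles is said to link a control to a DDR1 library. Depth limits GRHL2, and ESRP1 in DDR1 replicate 4.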
